A study of Mus musculus with 12 samples.

Results

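The nuclear genes that encode subunits of the oxidative phosphorylation machinery were followed across sorted mouse lung cancer cells. Members were all rows of the count table whose gene symbol begins with Nduf followed by a, b, c, s or v and a digit, is Sdha to Sdhd, begins with Uqcr, begins with Cox followed by a digit from 4 to 8 and a letter from a to c, or begins with Atp5. The rule took 82 of the 30743 rows of the table: 37 for complex I, 4 for complex II, 8 for complex III, 16 for complex IV and 17 for complex V. By its letters it leaves out Cox4i1, Cox4i2 and Ndufab1, which also encode subunits, and it takes in Atp5s and Atp5sl, which are named after complex V without being subunits of the enzyme proper. Ndufa4 and its paralogue Ndufa4l2 were counted with complex I by their names, although the Ndufa4 protein is known as a component of complex IV.

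Libraries were made from cancer cells of mouse lung tumours on a mixed BL6/129 background, from which cells stained for CD45, CD31, F4/80 or Ter119 had been removed by sorting. The 4 title groups were KT (4 libraries), KT;Lkb1f/f (3 libraries), KT;H11LSL-Cas9 with sgSik1 (3 libraries) and KT;H11LSL-Cas9 with sgSik1-3 (2 libraries). All groups carried KT, which the labels do not spell out. Lkb1f/f is a floxed allele of Stk11, the gene of the kinase Lkb1, and H11LSL-Cas9 is a Cre-dependent Cas9 allele, guided here to Sik genes, which encode salt-inducible kinases activated by Lkb1. The genotype label joins the last 2 title groups into 1 group of 5 libraries, called Sik-targeted below. The labels give no ages, do not name the cells in which Cre was expressed and do not spell out the range in sgSik1-3. The names of KT replicates 2 to 4 mention lentiviral Cre while that of KT replicate 1 does not. The labels do not state that libraries of a group came from separate animals, so p-values measure the spread between these libraries, which may be technical.

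Oxidative phosphorylation couples the oxidation of nutrients to the synthesis of ATP in the inner mitochondrial membrane. Complexes I and II pass electrons from NADH and succinate to ubiquinone, complex III passes them on to cytochrome c, and complex IV passes them to oxygen. Complexes I, III and IV pump protons, and complex V, the ATP synthase, uses the returning protons to make ATP. Most subunits are encoded in the nucleus, and a few core subunits are encoded in mitochondrial DNA and were not analysed here. Several nuclear subunits of complex IV exist as isoforms, some of them typical of heart and skeletal muscle or of testis.

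Members differed widely in base composition. The first 120 coding bases of 4 tested members, among the poorest and the richest in GC over their transcript, are shown with G and C in capitals. Atp5s (chr12:69724913-69744665) and Cox7b (chrX:106015700-106022450), a small subunit of complex IV, have transcripts of 39.0% and 42.0% GC. Ndufs7 (chr10:80249105-80256794), an iron-sulfur subunit of complex I, and Atp5d (chr10:80138698-80145828), the delta subunit of the ATP synthase, have transcripts of 60.7% and 61.1% GC. The sequences were read from the GENCODE transcripts of GRCm38, 5′ to 3′ on the coding strand.
Atp5s: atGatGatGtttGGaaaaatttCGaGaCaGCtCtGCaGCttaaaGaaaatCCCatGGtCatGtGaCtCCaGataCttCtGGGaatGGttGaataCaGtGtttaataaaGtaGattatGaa
Cox7b: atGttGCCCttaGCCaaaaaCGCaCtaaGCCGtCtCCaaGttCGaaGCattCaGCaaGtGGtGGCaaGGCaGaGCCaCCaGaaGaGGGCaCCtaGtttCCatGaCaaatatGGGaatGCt
Ndufs7: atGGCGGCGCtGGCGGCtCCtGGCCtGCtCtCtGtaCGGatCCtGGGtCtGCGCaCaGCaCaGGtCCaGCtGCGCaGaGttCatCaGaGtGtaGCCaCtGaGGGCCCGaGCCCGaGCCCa
Atp5d: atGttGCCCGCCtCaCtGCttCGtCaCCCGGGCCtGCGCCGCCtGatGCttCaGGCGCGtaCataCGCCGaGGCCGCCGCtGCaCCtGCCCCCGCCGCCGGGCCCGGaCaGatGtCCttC

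Promoters of 69 members, in 75 windows of 250 bases before to 50 bases after the start site, were present in the RefSeq table of GRCm38.p6 and were searched on both strands for 5 short motifs. The motif of nuclear respiratory factor 1, a factor known for binding genes of the respiratory chain, was searched as GCGCATGCG or TGCGCATGC, which overlap each other. It was found in 9 of the 75 windows (12%) and in 740 of all 32851 windows of that length in the table (2.25%). AAGATGGC, a motif of the factor YY1, was found in 16% of member windows and 2.75% of all windows. CCGGAAGT, an ETS motif, was found in 6.67% and 3.89%, and GGGCGG, an Sp1 motif, in 38.7% and 35.7%. TGACGTCA, the cyclic AMP response element bound by CREB, whose coactivators are restrained by salt-inducible kinases, was found in 5.33% of member windows and 1.79% of all windows, in the promoters of Ndufa10, Ndufa11, Ndufb2 and Uqcrfs1. A match is a description of letters and does not show binding.

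Stretches of 150 bases before the start site are shown for Atp5g2, an isoform gene of the membrane ring of the ATP synthase with very uneven levels, for Ndufa6, an accessory subunit of complex I with a low p in the Lkb1 comparison, and for Uqcrfs1, the Rieske iron-sulfur protein of complex III and a holder of the CREB motif. Capitals mark the NRF1 letters in the first and second and the CREB letters in the third. All lie on the minus strand of GRCm38.p6, at chr15:102671048-102671197, chr15:82354292-82354441 and chr13:30545317-30545466 in that order.
Atp5g2: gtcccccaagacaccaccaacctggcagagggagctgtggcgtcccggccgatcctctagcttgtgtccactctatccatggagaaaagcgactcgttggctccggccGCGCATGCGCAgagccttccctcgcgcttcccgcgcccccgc
Ndufa6: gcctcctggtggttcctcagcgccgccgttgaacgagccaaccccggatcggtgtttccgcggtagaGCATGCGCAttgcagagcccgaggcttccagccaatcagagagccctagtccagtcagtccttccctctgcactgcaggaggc
Uqcrfs1: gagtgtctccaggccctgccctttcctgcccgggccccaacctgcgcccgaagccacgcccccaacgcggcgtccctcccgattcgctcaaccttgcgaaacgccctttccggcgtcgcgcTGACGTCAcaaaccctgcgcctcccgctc

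Total counts per library ranged from 3847760 to 13955181, and members took between 0.127% (sgSik1 replicate 1) and 0.634% (KT replicate 1) of all counts. The 4 most abundant transcripts took between 18.4% and 74.2% of a library, so levels are given as CPM, counts scaled to a common library size after TMM normalization, a scaling that discounts such dominant genes. Stk11, the gene deleted in KT;Lkb1f/f, was lower in those libraries (9.23, 16.6 and 9.92 CPM) than in any KT library (31.0 to 44.7 CPM) or Sik-targeted library (22.6 to 137 CPM). Epcam, an epithelial marker, was present in every library at 118 to 388 CPM. Of the 82 members, 77 passed the edgeR filter on low counts: 36, 4, 8, 12 and 17 for complexes I to V. The other 5 were Cox7a1, Cox7b2, Cox8b and Cox8c, which are muscle or testis isoforms of complex IV, and Ndufa4l2, a gene known to be induced by hypoxia. None of these 5 had more than 6 counts in any library.

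Per kilobase of transcript, the scale on which genes can be compared, the highest mean level over the 12 libraries belonged to Atp5b, the beta subunit of the catalytic head of the ATP synthase, with 335 CPM per kb. It was followed by Cox6a1 (109 CPM per kb), Atp5a1, the alpha subunit of the same head (105), Atp5g3 (95.7) and Cox6c (95), and the lowest tested members were Atp5sl (1.51), Atp5s (1.89) and Cox6b2, the testis isoform of COX6B (2.20). Without division by length, Atp5b had 642 ± 207 CPM, Atp5a1 259 ± 56.0 and Sdha, the flavoprotein of complex II, 91.5 ± 17.9 (SD, n = 12). At the low end on that scale were Atp5s with 2.81 ± 2.03 CPM, Ndufb4, an accessory subunit of complex I, with 2.61 ± 0.721 and Cox6b2 with 1.29 ± 1.01. The steadiest tested member was Ndufa10, a complex I accessory subunit, with a standard deviation of 0.17 of its log2 level and between 28.7 and 41.1 CPM in every library. The least steady was Cox6a2, with a standard deviation of 2.20.

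The median level of the complexes differed more among the 4 KT libraries than between the groups. As the median over tested members of log2(CPM + 0.5), all members together stood at 4.98, 3.74, 3.58 and 4.09 in KT replicates 1 to 4. The values were 3.97, 3.85 and 3.98 in the KT;Lkb1f/f libraries, 4.39, 4.15 and 4.12 in the sgSik1 libraries and 4.05 and 4.46 in the sgSik1-3 libraries. The highest and lowest libraries, KT replicates 1 and 3, therefore bracketed every other library and lay 2.63-fold apart. All tested genes had medians within a 1.12-fold range over the same libraries, and medians of 77 cytosolic and 74 mitochondrial ribosomal protein genes ranged 3.71-fold and 1.73-fold.

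**Figure D1:**
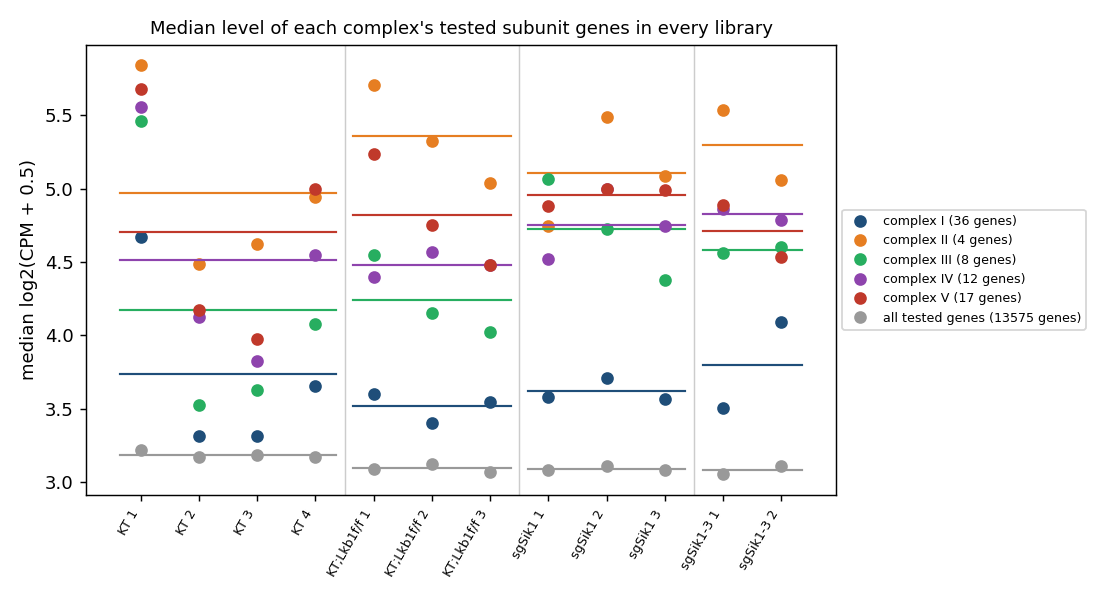
Each point is the median log2(CPM + 0.5) of the tested genes of a complex, or of all tested genes, in 1 library, and each line is the mean over a group's libraries. KT replicate 1 was the highest library for each of the 5 complexes, while the all-gene medians stayed between 3.05 and 3.22.

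Complex I subunit genes had a mean median level of 3.74 ± 0.64 in KT, 3.52 ± 0.10 in KT;Lkb1f/f and 3.69 ± 0.24 in Sik-targeted libraries (SD of log2 values, n = 4, 3 and 5). For complex II the means were 4.97 ± 0.61, 5.36 ± 0.33 and 5.18 ± 0.33, and for complex III 4.17 ± 0.89, 4.24 ± 0.27 and 4.67 ± 0.25. For complex IV they were 4.51 ± 0.76, 4.48 ± 0.09 and 4.78 ± 0.17, and for complex V 4.71 ± 0.79, 4.82 ± 0.38 and 4.86 ± 0.19. In each complex the values of the 3 groups overlapped, and the SD within KT exceeded the SD in both other groups.

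KT replicate 1 was the highest of the KT libraries. In it 72 of the 77 tested members lay above their own mean over the 12 libraries, 40 members had their highest level there, and the median deviation was 0.89 on the log2 scale. KT replicates 2 and 3 lay on the other side: 64 and 71 members were below their mean. More genes had counts in these 2 libraries (23582 and 23747) than in any other (14283 to 16533). The macrophage markers listed below summed to 1106 and 666 CPM in them, the highest sums of the 12 libraries. The part of these differences in the members' values was not tested. The library sgSik1 replicate 1 held the highest level of 19 members and the lowest level of 20, and its deviations had an SD of 1.22, against 0.30 to 0.68 in the other 11 libraries.

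In sgSik1 replicate 1 the deviations went with base composition. Across the 77 members, Spearman's rho between the deviation and the GC content of the transcript was 0.57 there, and it was 0.67 across the 12864 tested genes with a known GC content. The members with the lowest GC (26 genes up to 49.2%) had a median deviation of -0.47, the 25 in the middle -0.09 and the 26 above 53.7% GC a median of 1.27. Atp5d, printed above with its many G and C, stood at 229 CPM in that library and between 24.0 and 91.6 CPM in the others. Atp5s, the poorest of the tested members in G and C, had 0 counts there and between 0.905 and 6.58 CPM elsewhere. In sgSik1-3 replicate 1 and sgSik1 replicate 2 the relation across members ran the other way, with rho of -0.53 and -0.48. In KT replicate 1 the rho with GC was 0.11 and that with transcript length was -0.44. These correlations are across genes of 1 library, which share its depth and are not independent replicates, and the part of base composition in the results below was tested only through the alternative fits named beside them.

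**Figure D2:**
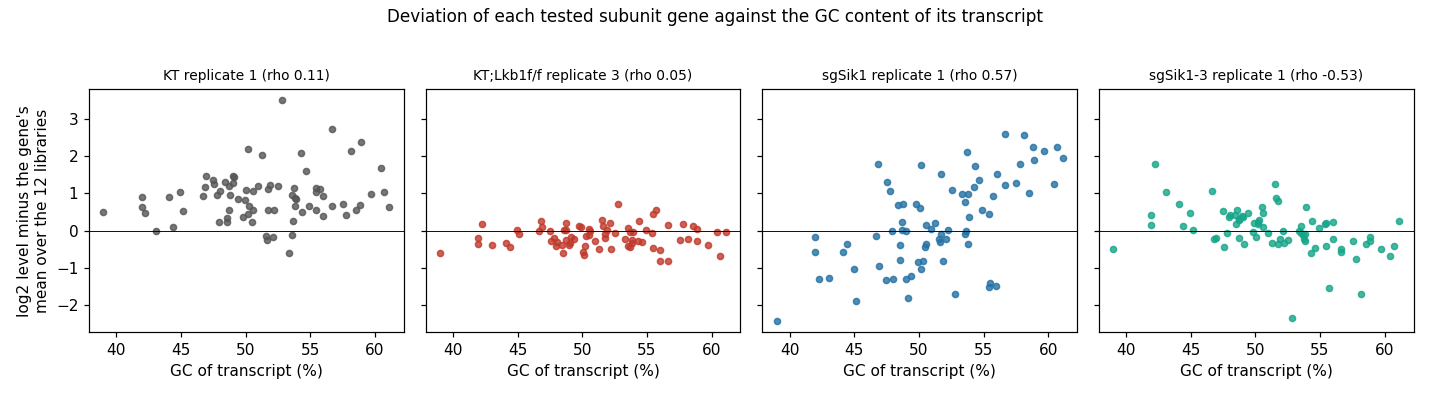
Each point is 1 tested member, with the GC content of its transcript in percent on the x axis and its log2(CPM + 0.5) minus its mean over the 12 libraries on the y axis, in 4 libraries of different groups. The points climb with GC in sgSik1 replicate 1 (rho 0.57), fall in sgSik1-3 replicate 1 (rho -0.53) and lie mostly above 0 in KT replicate 1.

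In KT;Lkb1f/f libraries, compared with KT, no member passed an adjusted p of 0.05 (edgeR quasi-likelihood F test, Benjamini-Hochberg over 13575 genes), against 1.16% of all tested genes, and DESeq2 and limma-voom also called 0 of the 77. Unadjusted p-values under 0.05 were reached by 2 members, Ndufa3 and Cox5b, against 13.1% of all tested genes. The median log2 change was -0.27 over the 77 members, with 27 positive and 50 negative values, beside -0.04 over all tested genes, and the values ran from -2.25 (Cox6a2) to 1.14 (Uqcrb). By complex the median was -0.31 for I, 0.19 for II, -0.04 for III, -0.42 for IV and -0.22 for V. The 95% interval of a member's change had a median half-width of 0.99, without adjustment for the number of genes. Changes of that size, and larger ones, could therefore go uncalled for a typical member. The sign of the median rested on KT replicate 1: without it the median was 0.16 and 54 members were positive. With offsets for GC and length the median was 0.11, with 49 positive.

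Ndufa3, an accessory subunit of complex I, had the smallest p of the members in this comparison. KT replicates 1 to 4 gave 26.7, 5.66, 4.01 and 11.9 CPM, the KT;Lkb1f/f libraries 3.64, 4.12 and 4.22, the sgSik1 libraries 7.11, 5.12 and 6.66 and the sgSik1-3 libraries 4.72 and 4.52. The KT;Lkb1f/f values lay in a narrow band that reached just above the lowest KT value. Its log2 change with Lkb1 deletion was -1.58 (SE 0.57, adjusted p = 0.211), and without KT replicate 1 it was -0.84. With Sik targeting it was -1.09 (SE 0.47, adjusted p = 0.143), and without KT replicate 1 it was -0.34.
Ndufa6, the other complex I gene chosen by p, had a log2 difference of -0.81 (SE 0.39, adjusted p = 0.402). Cox5b, a nuclear subunit on the matrix side of complex IV, had 35.7, 11.4, 8.91 and 15.9 CPM in the KT libraries against 7.29, 10.3 and 9.92 in the KT;Lkb1f/f libraries, and its log2 change was -0.97 (SE 0.45, adjusted p = 0.379).

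Groups did not overlap for 4 of the 77 members, against 14.7% of all tested genes, and all 4 were complex I genes that were lower with Lkb1 deletion: Ndufs1, Ndufs4, Ndufs7 and Ndufb7. Ndufs1, the largest iron-sulfur subunit of the NADH-oxidizing arm, had 23.4, 18.8, 22.9 and 22.5 CPM in the KT libraries against 14.8, 14.2 and 15.1 in the KT;Lkb1f/f libraries. Its log2 change of -0.57 (SE 0.43, adjusted p = 0.629) did not pass the test. Ndufs7, which carries the last iron-sulfur cluster before ubiquinone, had 28.5, 14.3, 12.4 and 14.6 CPM in the KT libraries against 5.47, 9.77 and 8.26 in the KT;Lkb1f/f libraries, with a log2 change of -1.15 (SE 0.65, adjusted p = 0.485). Ndufv1, the NADH-binding flavoprotein, had a log2 difference of 0.39 (SE 0.51).

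**Figure D3:**
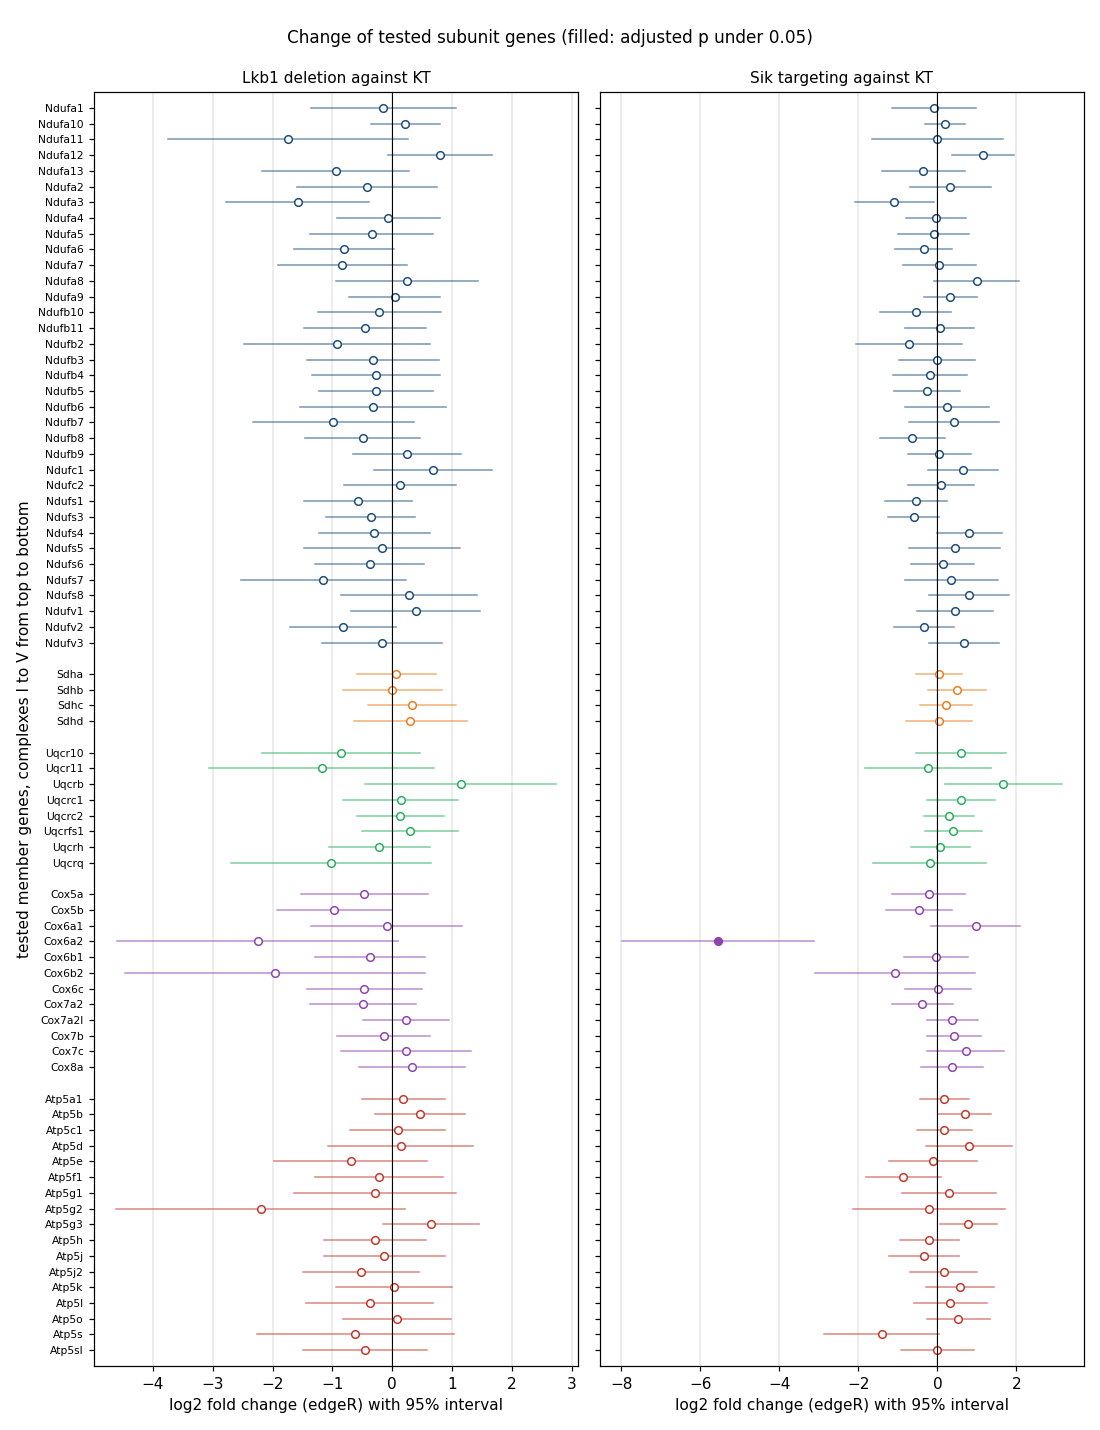
Each row is 1 tested member (1 of the 77 is not drawn), grouped by complex I to V from top to bottom, with its edgeR log2 fold change and 95% interval on the x axis for Lkb1 deletion (left) and Sik targeting (right) against the same KT libraries. The filled point of Cox6a2 at -5.56 in the right panel is the only member past an adjusted p of 0.05.

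Targeting of Sik genes was compared with the same KT libraries, so the values of the 2 comparisons share their controls. No title names Cas9 or a guide outside the Sik-targeted groups. Effects of targeting Sik genes and of carrying Cas9 with a guide therefore cannot be told apart. Levels of the Sik genes are not given here. Only Cox6a2 among the 77 members passed the test and it fell, against 12.4% of all tested genes called in either direction. In all, 6 members had an unadjusted p under 0.05 (4 higher, 2 lower), against 28.5% of all tested genes. The median log2 change was 0.09 over the members, 48 positive and 29 negative, beside -0.03 over all tested genes, and the values ran from -5.56 (Cox6a2) to 1.67 (Uqcrb). By complex the median was 0.05 for I, 0.13 for II, 0.35 for III, -0.005 for IV and 0.18 for V, and the median half-width of the 95% interval of a member's change was 0.88. Without KT replicate 1 the median was 0.59, with 63 positive. It was -0.02 without KT replicate 2, -0.05 without KT replicate 3 and -0.26 without both, with 25 positive. The count of members called ran from 1 to 7 over the alternatives. It was 7 with offsets for GC and length (6 higher and Cox6a2 lower), where the median was 0.35 with 57 positive, and 5, all higher and without Cox6a2, when KT replicate 1 and sgSik1 replicate 1 were both left out. The shares of all tested genes called in these fits are not given here. The counts therefore do not show whether members gained more calls than other genes.

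Cox6a2 encodes the heart and skeletal muscle isoform of subunit 6A of complex IV, whose widespread isoform is Cox6a1. It spans chr7:128205435-128206366 and lies within Itgad, an integrin gene of myeloid cells on the opposite strand. The strand setting of the counting is unknown here, so reads of the 2 genes over that stretch cannot be told apart. Cox6a2 had 180, 82, 67 and 114 counts in KT replicates 1 to 4, 0, 61 and 20 in KT;Lkb1f/f, 1, 9 and 1 in sgSik1 and 0 in both sgSik1-3 libraries. Every Sik-targeted library lay below every KT library, while the KT;Lkb1f/f libraries ranged from 0 to 6.28 CPM. The means were 16.0 ± 12 CPM in KT (SD, n = 4), 3.32 ± 3.15 in KT;Lkb1f/f (n = 3) and 0.324 ± 0.548 in Sik-targeted libraries (n = 5).
The log2 change was -5.56 (SE 1.14, adjusted p = 0.00863) for Sik targeting against KT and -2.25 (SE 1.10, adjusted p = 0.402) for Lkb1 deletion against KT. The call was lost without KT replicate 1 and sgSik1 replicate 1 together (-5.11, adjusted p = 0.0636). Over the alternatives the change ranged from -7.63 to -5.09 and the adjusted p from 2.1e-16 to 0.0636. For Lkb1 deletion the value was -1.65 without KT;Lkb1f/f replicate 1, which had 0 counts, -1.82 without KT replicate 1 and -3.17 without KT;Lkb1f/f replicate 2, none of them called. It was called only without the low-count filter (-2.24, adjusted p = 0.0103), and the adjusted p over the alternatives ran from 0.0103 to 0.628. In the 4 title groups the change was -4.94 (adjusted p = 0.0637) for sgSik1. For sgSik1-3 the adjusted p was 0.0639, and with 0 counts in the group the level was at least 39.0-fold lower than in KT, taking 3 counts over the group as the floor, a bound that covers counting error only.

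Some markers of ciliated cells, macrophages, leukocytes, AT2 cells, fibroblasts and pericytes fell in the Sik-targeted libraries too, against 12.4% of all tested genes called. The summed level of 7 ciliated cell markers was 17.8 to 42.6 CPM in KT, 1.82 to 5.33 in KT;Lkb1f/f and 0 to 3.13 in Sik-targeted libraries, and all 7 fell in Sik-targeted libraries. The 9 macrophage markers present summed to 83.8 to 1106, 13.5 to 14.5 and 12.4 to 23.6 CPM, and 6 of the 8 tested fell. The 10 AT2 markers, which mark alveolar type 2 cells, summed to 27833 to 97138 CPM in KT, 15909 to 41075 in KT;Lkb1f/f and 10496 to 33571 in Sik-targeted libraries, and 5 of 10 fell. The 6 leukocyte markers summed to 17.8 to 44.4, 2.39 to 145 and 13.6 to 145 CPM, and 3 of the 4 tested fell in Sik-targeted libraries. Cd53, a tetraspanin of leukocytes and the 1 tested marker that did not fall, carried the high sums, with 144 CPM in KT;Lkb1f/f replicate 1 and 12.5 to 144 CPM in Sik-targeted libraries against at most 7.30 in KT (log2 difference 3.75 with Sik targeting, adjusted p = 0.0642). Ptprc, which encodes CD45, had at most 7.89 CPM in KT and 0.724 in Sik-targeted libraries. The sums of 9 fibroblast and pericyte markers were 29.0 to 396, 2.79 to 426 and 15.6 to 52.3 CPM. Of the 8 tested, 7 had negative log2 differences with Sik targeting and 2 fell, Col3a1 and Pdgfra, with a median of -2.51 over the 8. The sums of 7 endothelial markers, of which none was called, were 14.8 to 40.3, 1.34 to 214 and 17 to 42.5 CPM. Itgad itself had 0, 34, 26 and 3 counts in KT, 0, 17 and 1 in KT;Lkb1f/f and 0 to 1 in Sik-targeted libraries. Of 12 heart and skeletal muscle markers, only 3 passed the filter and none was called. Their sum was 157 to 317 CPM in KT, 65.9 to 223 in KT;Lkb1f/f and 156 to 520 in Sik-targeted libraries. Myh7, a slow and cardiac myosin heavy chain, made up most of it, with 62.6 to 476 CPM over the 12 libraries, and Myh6 had 0 to 43.1 CPM. Ckm and Mb, which define muscle fibres, did not exceed 0.562 CPM in any library. At 0 in every library of the group were 4 of the 12 in Sik-targeted libraries and 5 in KT;Lkb1f/f. Those 4, Actc1, Mb, Tnnt3 and Myh4, had at most 11 counts in any KT library. Of 7 smooth muscle markers 4 were tested, and 1 rose and 1 fell with Sik targeting. In bulk libraries, fewer cells of a type and less RNA per cell cannot be told apart, and the part of these cell types in the Cox6a2 result was not tested.

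**Figure D4:**
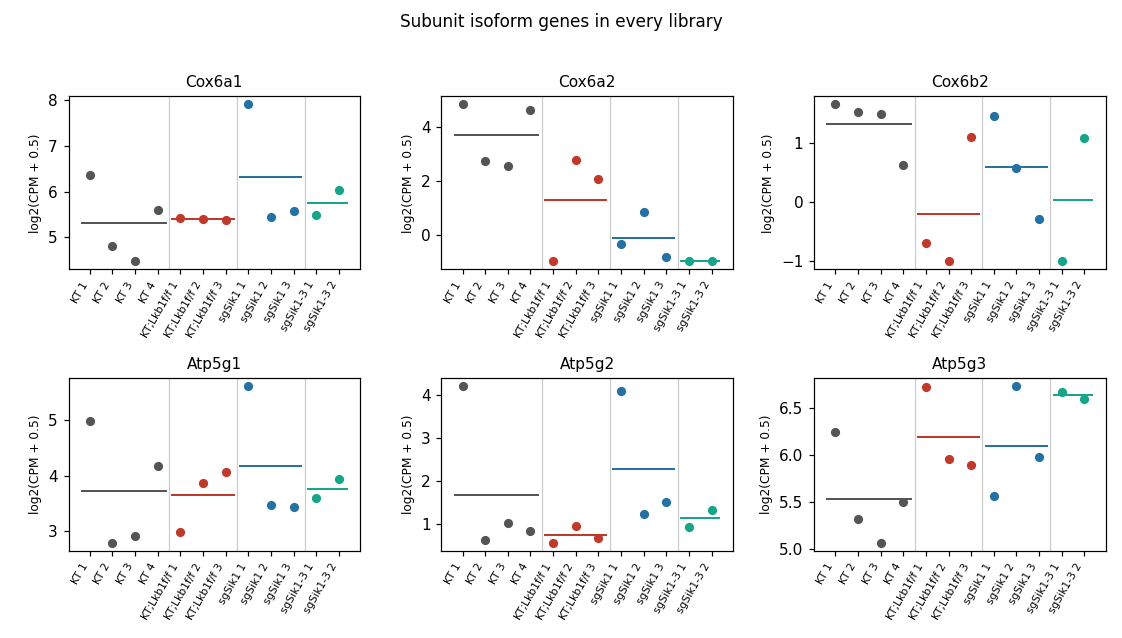
Points show log2(CPM + 0.5) of 6 isoform genes in each library and lines the mean over a group's libraries. Cox6a2 sits above 2 in all KT libraries and below 1 in all Sik-targeted libraries, while Cox6a1, Atp5g1 and Atp5g2 stand out in sgSik1 replicate 1.

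The other isoform genes gave no call. For Cox6a1, the KT libraries gave 81.8, 27.8, 21.8 and 48.2 CPM, the KT;Lkb1f/f libraries 42.6, 42.1 and 41.1, the sgSik1 libraries 240.4, 43.4 and 47.5 and the sgSik1-3 libraries 44.2 and 65.3. The value of sgSik1 replicate 1 lay far above all others, and the log2 change with Sik targeting was 0.97 (SE 0.53, adjusted p = 0.246). Without that library it was 0.17 (adjusted p = 0.79), and without KT replicates 2 and 3 it was 0.41 (adjusted p = 0.832). Cox6b2 had between 0 and 2.67 CPM and a log2 difference of -1.08 (SE 0.95), while its widespread counterpart Cox6b1 had -0.03 (SE 0.38). Cox7a2, the widespread isoform of subunit 7A, had -0.38 (SE 0.36), and Cox7a2l, a relative that joins complexes III and IV into supercomplexes, had 0.38 (SE 0.30). For Cox8a, the widespread subunit 8, the log2 difference was 0.37 (SE 0.37), for Cox7b 0.43 (SE 0.32) and for Ndufa4 -0.03 (SE 0.36).

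Atp5g1, Atp5g2 and Atp5g3 encode the same mature subunit c, which forms the rotating ring of the ATP synthase. Atp5g1 stood at 48.9 CPM in sgSik1 replicate 1 and between 6.40 and 31.3 in the other 11 libraries. Atp5g2 stood at 18.3 CPM in KT replicate 1 and 16.8 in sgSik1 replicate 1 and between 0.972 and 2.35 in the other 10 libraries. For Atp5g3, the KT libraries gave 75.4, 39.3, 32.9 and 44.6 CPM, the KT;Lkb1f/f libraries 105, 61.6 and 59.0, the sgSik1 libraries 46.9, 106 and 62.4 and the sgSik1-3 libraries 101 and 96.3. Against KT the log2 value of Atp5g3 was 0.78 for Sik-targeted libraries (SE 0.34, adjusted p = 0.145), and 0.65 for KT;Lkb1f/f (SE 0.38, adjusted p = 0.509). The Sik value passed with offsets for GC and length (1.03, adjusted p = 0.0221).

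Ndufa12, an accessory subunit of complex I (chr10:94199035-94221440), came nearest to the threshold from the positive side. The KT libraries gave 13.7, 8.49, 5.62 and 11.7 CPM, the KT;Lkb1f/f libraries 19.4, 13 and 18.5, the sgSik1 libraries 12.8, 22.8 and 15.8 and the sgSik1-3 libraries 36.9 and 21.5. Among the Sik-targeted libraries only sgSik1 replicate 1 fell within the KT range. Against KT its log2 change was 1.16 (SE 0.37, adjusted p = 0.052) over all Sik-targeted libraries and 1.59 (SE 0.44, adjusted p = 0.0606) for sgSik1-3 alone. For KT;Lkb1f/f it was 0.79 (SE 0.41, adjusted p = 0.434). It passed by DESeq2 (adjusted p = 0.0236), by limma-voom (0.0407), without sgSik1 replicate 1 (1.3, adjusted p = 0.0294) and with offsets for GC and length (adjusted p = 0.0155).

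Ndufs4 and Cox7c were chosen for display after their values were seen. Ndufs4, an accessory subunit whose loss impairs assembly of complex I, had 19.98, 17.3, 16.9 and 16.6 CPM in the KT libraries and 15.9, 12.04 and 15.2 in the KT;Lkb1f/f libraries. The sgSik1 libraries gave 7.96, 28.2 and 33.4 CPM and the sgSik1-3 libraries 41.3 and 44.3, so the Sik-targeted libraries held both the lowest value and the 4 highest. Its log2 change with Sik targeting was 0.81 (SE 0.39, adjusted p = 0.181), and without sgSik1 replicate 1 it was 1.05 (adjusted p = 0.0165). Cox7c, a small subunit of complex IV, ranged from 11.1 to 62.0 CPM in KT and from 26.3 to 68.7 in Sik-targeted libraries. Its change was 0.71 (SE 0.46, adjusted p = 0.324), and without KT replicate 1 it was 1.45 (adjusted p = 0.0427).

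**Figure D5:**
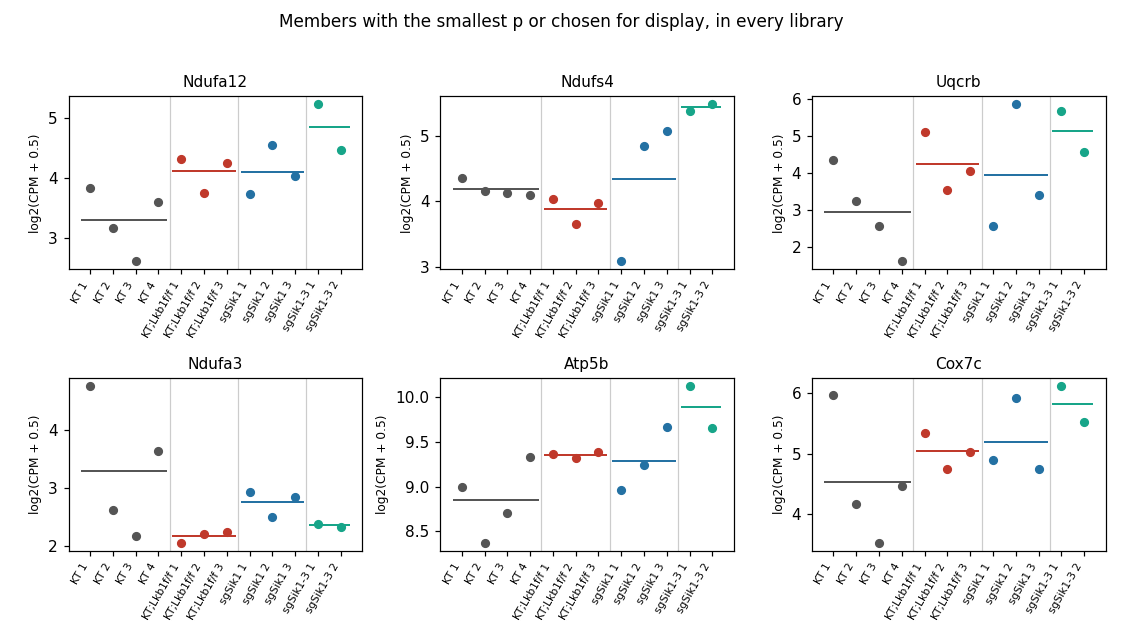
Points show log2(CPM + 0.5) of 6 members in each library and lines the mean over a group's libraries. Ndufs4 is lowest in sgSik1 replicate 1 and highest in the 2 sgSik1-3 libraries, and Uqcrb spreads widely in every group.

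Uqcrb, a small subunit of complex III (chr13:66900576-66905350), had 19.8, 8.93, 5.38 and 2.55 CPM in the KT libraries, 33.5, 11 and 16.2 in the KT;Lkb1f/f libraries, 5.40, 57.2 and 10.04 in the sgSik1 libraries and 50.6 and 23.0 in the sgSik1-3 libraries. Its log2 change against KT was 1.67 for Sik-targeted libraries (SE 0.69, adjusted p = 0.126) and 1.14 for KT;Lkb1f/f (SE 0.75, adjusted p = 0.566), and the Sik value passed with offsets for GC and length (2.10, adjusted p = 0.029). With Sik targeting the log2 difference was 0.60 for the core protein Uqcrc1 (SE 0.40, adjusted p = 0.355) and 0.40 for the Rieske protein Uqcrfs1 (SE 0.34, adjusted p = 0.469). Lkb1 deletion gave Uqcr10, a small subunit, a log2 value of -0.86 (SE 0.62, adjusted p = 0.612).

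No gene of complex II, which also acts in the citrate cycle, passed the test in any comparison. With Lkb1 deletion the log2 differences of its 4 genes were 0.07 (Sdha, SE 0.31), 0.00 (Sdhb, SE 0.39), 0.32 (Sdhc, SE 0.35) and 0.30 (Sdhd, SE 0.44), and with Sik targeting they were 0.04, 0.51, 0.21 and 0.05 in that order. Sdha stood between 76.0 and 106 CPM in KT, between 59.5 and 112 in KT;Lkb1f/f and between 69.1 and 114 in Sik-targeted libraries. The 3 groups overlapped for all 4 genes in both comparisons with KT. Among the catalytic subunits of the ATP synthase, Atp5a1 had a log2 difference of 0.19 (SE 0.33) with Lkb1 deletion and 0.18 (SE 0.29) with Sik targeting. Atp5b stood at 330 to 645 CPM in KT, 639 to 667 in KT;Lkb1f/f, 498 to 811 in sgSik1 and 807 and 1120 in sgSik1-3, and its log2 difference was 0.69 (SE 0.31, adjusted p = 0.161) with Sik targeting. In complex IV, Cox5a, another nuclear subunit, had a log2 difference of -0.47 (SE 0.50) with Lkb1 deletion and -0.22 (SE 0.43) with Sik targeting.

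For the 4 members whose promoter windows held the CREB motif, the log2 differences with Sik targeting were 0.19 (Ndufa10, SE 0.24), 0.00 (Ndufa11, SE 0.78), -0.72 (Ndufb2, SE 0.63) and 0.40 (Uqcrfs1, SE 0.34).

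Lkb1-deleted and Sik-targeted libraries were compared with each other. None of the 77 members passed (edgeR), against 0.221% of all tested genes, and neither DESeq2 nor limma-voom called any. The median log2 difference, Lkb1 deletion minus Sik targeting, was -0.37, with 62 of 77 negative, beside -0.02 over all tested genes and -0.58 and -0.28 over cytosolic and mitochondrial ribosomal protein genes. All 8 complex III genes were negative, as were 29 of 36 for complex I, 11 of 12 for complex IV and 13 of 17 for complex V. Complex II went the other way, with 3 of 4 genes positive and a median of 0.07. Among all 13575 tested genes, 6972 were negative. Unadjusted p under 0.05 was reached by 5 members, against 12.7% of all tested genes. Cox6a2 had a log2 difference of 3.31 (SE 1.17, adjusted p = 0.261), and Ndufs4 (-1.11, SE 0.43, adjusted p = 0.303), Ndufs7 (-1.51, SE 0.64), Uqcr10 (-1.45, SE 0.61) and Ndufb7 (-1.40, SE 0.62) had negative values. Without KT;Lkb1f/f replicate 1, which had 0 counts of Cox6a2, the difference of Cox6a2 was 3.90 (adjusted p = 0.0245). It was 2.37 without KT;Lkb1f/f replicate 2 (adjusted p = 0.879), 5.38 without sgSik1 replicate 2 (adjusted p = 0.0536) and 3.32 without the low-count filter (adjusted p = 4.12e-05), and over all alternatives the adjusted p ran from 4.12e-05 to 0.879. Groups did not overlap for 8 members, all lower with Lkb1 deletion, against 5.38% of all tested genes: Ndufa3, Ndufa6, Ndufs5, Sdhb, Cox6a1, Cox6b1, Cox7b and Atp5l.

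The 2 title groups of Sik-targeted libraries were also fitted separately over 15303 genes. No member passed for sgSik1 against KT, where 3.84% of all tested genes were called, with 3 members at an unadjusted p under 0.05, against 24.4% of all tested genes, and 1 called by DESeq2 but none by limma-voom. No member passed for sgSik1-3 against KT either, where 2.89% of all tested genes were called, with 6 members at an unadjusted p under 0.05, against 20.5% of all tested genes, and 2 called by DESeq2 but none by limma-voom. Without sgSik1 replicate 1, Ndufa12 and Ndufs4 passed for sgSik1-3. Between sgSik1-3 and sgSik1 no gene of the table was called (0%), no member had an unadjusted p under 0.05 (3.45% of all tested genes) and DESeq2 and limma-voom called no member. Member medians were 0.11, 0.12 and -0.02 in these 3 comparisons, beside -0.10, -0.25 and -0.14 over all tested genes.

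Other genes of the pathway were read from lists of assembly factors, carriers, regulators and fuel enzymes. With Lkb1 deletion no tested gene passed among 12 complex I, 2 complex II, 3 complex III, 11 complex IV and 4 complex V assembly factors, 25 subunits and carriers outside the rule, 21 nuclear regulators and 24 genes of the citrate cycle and pyruvate dehydrogenase. With Sik targeting none of the same assembly factors or carriers passed. Of the 21 regulators 3 rose and 1 fell, against 12.4% of all tested genes called. Ppard, a fatty-acid-activated nuclear receptor, rose by 2.77 (adjusted p = 0.005), Myc, a growth transcription factor, by 2.28 (adjusted p = 0.0252), and Nrip1, a corepressor of oxidative genes, by 1.5 (adjusted p = 0.0136). Esrrg, an estrogen-related receptor of oxidative tissues, fell, with 3 to 44 counts in the KT libraries and 0 in all 5 Sik-targeted libraries (adjusted p = 0.0103). Without being called, the 3 risers also lay above every KT library in KT;Lkb1f/f. Ppard had 32.0 to 67.8 CPM there against 8.18 to 18.5 in KT. Myc had 104 to 168 CPM against 10.4 to 53.9, and Nrip1 66.4 to 81.2 against 20.6 to 38.0. Esrrg had 0, 0 and 1 counts in KT;Lkb1f/f. In the fuel list only Mpc1, a subunit of the mitochondrial pyruvate carrier, passed with Sik targeting, and it fell by 1.74 on the log2 scale (adjusted p = 0.0249). Mpc1 had 8.5, 4.99, 3.69 and 6.58 CPM in the KT libraries, between 1.65 and 2.57 in KT;Lkb1f/f and between 0.568 and 2.35 in Sik-targeted libraries.

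Ppargc1a, the coactivator best known for driving mitochondrial gene expression, had 15.7, 22.6, 22.9 and 28.9 CPM in the KT libraries and 23.8, 90.3 and 89.6 in the KT;Lkb1f/f libraries. The sgSik1 libraries gave 21.3, 67.8 and 30.1 CPM and the sgSik1-3 libraries 19.1 and 40.5. Against KT its log2 change was 1.59 for KT;Lkb1f/f (SE 0.49, adjusted p = 0.142) and 0.67 for Sik-targeted libraries (SE 0.44, adjusted p = 0.333). Cycs, which encodes cytochrome c, had log2 differences of 1.07 (SE 0.57, adjusted p = 0.459) and 1.29 (SE 0.52, adjusted p = 0.117). Cox4i1, the main isoform of complex IV subunit 4, had -0.57 (SE 0.49) and -0.12 (SE 0.43) in the same order, and Ndufab1, the acyl carrier protein of complex I, had -0.65 (SE 0.43) and -0.29 (SE 0.37).

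Genes of the hypoxia response, which favour glycolysis over respiration, were read as another list. Of 18 listed genes 1 rose with Lkb1 deletion and 10 rose with Sik targeting, against 1.16% and 12.4% of all tested genes called. Among the 10 was Ldha, the lactate-forming dehydrogenase, which rose by 1.51 (adjusted p = 0.0157). The sum of the list was 744 to 980 CPM in KT, 1108 to 2390 in KT;Lkb1f/f and 1901 to 3573 in Sik-targeted libraries. The 16 genes of the response to tissue dissociation summed to 1799 to 5264 CPM in KT, 12186 to 20341 in KT;Lkb1f/f and 9030 to 28983 in Sik-targeted libraries, and 6 and 9 of them rose. The 11 epithelial markers summed to 1337 to 1757, 1845 to 3122 and 2375 to 6600 CPM, and 0 and 5 of them rose. The part of these differences in the members' values was not tested.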

How the data were processed

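RNA of 12 sorted cell samples was amplified to cDNA with an Ovation kit and sequenced as read pairs, per the labels' protocols. Reads were processed by the authors with STAR 2.4.2a, HTSeq and the mm10 genome, per the submitters' processing notes, and the annotation, strand setting and handling of reads with several matches were not given in the sources used here. Many members have processed pseudogenes, so part of their reads may have been lost or misplaced, and 24 of the 82 members overlap or lie within another protein-coding gene. The deposited values are raw counts per gene symbol.

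Counts were fitted with edgeR 4.0.16 in R 4.3.3 (TMM, filterByExpr, robust quasi-likelihood F test, 2-sided, threshold 0.05 on p-values adjusted by Benjamini and Hochberg's method over every tested gene), in 3 genotype groups (13575 genes, common dispersion 0.262) for the first 3 comparisons and 4 title groups (15303 genes, 0.287) for the others. The fit was also run on simulated counts with known changes. These counts held no library-wide shifts by GC or length, so the fit was not tested under such shifts. The SE is the log2 change over the square root of F. CPM use TMM library sizes, and logs add a pseudocount of 0.5. No libraries of a group agreed within sampling noise (lowest chi-square per degree of freedom 15.1). Alternatives were DESeq2 1.42.0, limma-voom (limma 3.58.1), other normalization, no filter, left-out libraries, a replicate block and offsets for GC and length. Symbols of all 82 members matched RefSeq. Named members were those past the threshold, the 2 with the smallest p per complex in the first 2 comparisons, catalytic subunits, isoform pairs and the 3 highest and lowest, with exceptions stated, and 1 of them is not reported here. Members and lists were chosen with earlier results of these data known. Of 15 same-numbered pairs from different groups, 6 had a correlation over 0.1 between their deviations from group means (range -0.38 to 0.23). Differently numbered pairs were not computed for reference, so a shared batch could not be judged.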

Additional observations from a re-analysis of the deposited data

Results flagged for a closer look

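A library far from the others of its group was looked for in 74 checks, and 12 were found. Each check took 1 named member or complex median over the 4 KT or the 5 Sik-targeted libraries. Chance alone marks about 1 in 20 such checks. The checks share the same libraries and are not independent, so the 12 cannot be judged against that rate.

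KT replicate 1 stood above the other KT libraries for subunits of 2 complexes and for a ring gene of the ATP synthase. Sdhd, a membrane anchor of complex II, stood at 55.2 CPM there and at 20.8 to 24.4 in the others. Sdhb, the iron-sulfur subunit of complex II, stood at 18.7 CPM against 7.43 to 8.35. In complex IV, Cox7a2 stood at 43.6 CPM against 16.2 to 18.3 and Cox7b at 46.1 CPM against 20.6 to 22.5. Atp5g2 had 18.3 CPM there and 1.04 to 1.53 in the other KT libraries. KT replicate 4 was low for Cox6b2, with 1.06 CPM against 2.33 to 2.67.

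Among the 5 Sik-targeted libraries, sgSik1 replicate 1 was high for Cox6a1 (240.4 CPM, which rounds to 240 and compares with 43.4 to 65.3), Atp5g1 (48.9 CPM against 10.3 to 14.8) and Atp5g2 (16.8 CPM against 1.42 to 2.35). It was low for Ndufs1 (3.98 CPM against 14.1 to 22.5) and Cox5a (7.39 CPM against 18.8 to 26.4). The complex V median in sgSik1-3 replicate 2 was 4.53 log2 CPM against 4.88 to 5.00.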

How the results depend on the processing

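The count of members called was most often near that reported, and 21 of 107 alternative counts moved. A count moved if it differed by over 1.5 times or, where the reported count was 0, if it differed at all. These counts are given without the shares of all tested genes called at the same settings. Without the low-count filter 2 members were called for Lkb1 deletion, 3 for Sik targeting, 2 between them, 3 for sgSik1 and 3 for sgSik1-3. For Sik targeting DESeq2, limma-voom and the 4 title groups each called 2 (Cox6a2 and Ndufa12). DESeq2 called 1 for sgSik1 and 2 for sgSik1-3, and fits of only the compared groups called 1 and 3. Leaving out single libraries gave 1 to 3 calls for Sik targeting, 0 to 1 between the perturbations, 0 to 1 for sgSik1 and 0 to 2 for sgSik1-3. Added calls came without KT replicate 1 (Cox7c), sgSik1 replicate 1 (Ndufa12 and Ndufs4), KT;Lkb1f/f replicate 1 (Cox6a2 between the perturbations) and sgSik1 replicate 2 (Cox6a2 for sgSik1). Alternatives chosen after seeing the data were the removal of KT replicate 1 and sgSik1 replicate 1 together, which called 5 members for Sik targeting (Atp5g3, Cox7c, Ndufa12, Ndufs4 and Uqcrb, all higher) and 5 for sgSik1-3, and offsets for GC and length, which called 7 and 3. The replicate block, for numbers that share no known pairing, called 0, 1 and 0 members in the first 3 comparisons and 0 in the others, and changed no call. Without KT replicates 2 and 3, Sdhc (-0.0525) and Sdhd (-0.0427) with Lkb1 deletion and Sdhc (-0.20) with Sik targeting reversed. The cause was not tested.

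On plain library totals, mean complex levels were 3.20, 4.67, 4.29, 4.32 and 4.52 for complexes I to V in sgSik1 and 3.35, 4.83, 4.12, 4.36 and 4.25 in sgSik1-3. In KT they were 4.35, 5.60, 4.79, 5.14 and 5.33, above both Sik-targeted title groups in each complex. With TMM the mean of the Sik-targeted libraries was above that of KT for complexes II to V, so the order of the groups depended on the scaling. In KT;Lkb1f/f the plain totals gave 3.42, 5.26, 4.15, 4.39 and 4.73, above both Sik-targeted title groups for complexes I, II, IV and V. With TMM the mean of KT;Lkb1f/f was below that of the Sik-targeted libraries for complexes I, III, IV and V. A pseudocount of 2 gave 3.69 and 4.58 (complexes I and IV, KT;Lkb1f/f), 3.79 and 5.03 (I and V, sgSik1) and 4.67 and 4.90 (III and IV, sgSik1-3). The 4-title-group alternative exists only for the first 3 comparisons. Depth limits the low members: a count of 3 corresponds to 0.164 to 0.853 CPM in single libraries.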

Other observations

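A few members are neighbours of Stk11, Sik1 or Sik2. Atp5d, Ndufs7 and Uqcr11 lie 8.0, 118.4 and 272.3 kb from Stk11 on chromosome 10, and their log2 changes with Lkb1 deletion were 0.14 (SE 0.57), -1.15 (SE 0.65) and -1.18 (SE 0.88), none of which passed the test. Ndufv3 lies 312.9 kb from Sik1 on chromosome 17 and Sdhd 285.8 kb from Sik2 on chromosome 9, and their log2 changes with Sik targeting were 0.67 (SE 0.42) and 0.05 (SE 0.39), neither of which passed.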
